A study of Mus musculus with 29 samples.

Results

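The genes of nitric oxide (NO) and cyclic GMP (cGMP) signalling were followed in bulk mRNA sequencing of the mouse aortic arch. The set was a list of 10 genes, chosen with earlier results of these data known: Nos3, Gucy1a1, Gucy1b1, Prkg1, Pde5a, Pde1a, Pde1b, Pde1c, Pde3a and Pde2a. All 10 were found by symbol among the 56748 genes of the deposited count table, and 9 were among the 12353 genes that passed the filter on low counts (over 10 counts in at least 11 samples) and were tested. Pde2a, a cGMP-stimulated phosphodiesterase, did not reach that limit in any sample. It had 0 counts in 25 of the 28 samples and 1 count in each of the other 3, which is at or under the limit of 3 counts that a count of 0 allows, so no fold change is given for it. The annotated gene Gm45837 lies on the same strand over the whole Pde2a locus, and reads within both genes may not have been assigned to either.

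All mice were C57BL6J/FVB F1 hybrids, housed individually and fed AIN93G chow. The mutants (Ercc1Δ/-) carried 1 loss-of-function allele and 1 hypomorphic, truncated allele of the DNA repair gene Ercc1 in every cell of the body, and wild-type (WT) littermates were the controls. Ad libitum (AL) fed mice of 6 weeks (5 WT and 5 Ercc1Δ/-) and of 22 weeks (4 WT and 4 Ercc1Δ/-) were compared with 22-week-old mice on dietary restriction (DR; 5 WT and 5 Ercc1Δ/-), which began at 7 weeks of age and reached 30% less food from 9 weeks on. Each library came from 1 mouse, 17 males and 11 females in all, and each group held both sexes. A further WT sample, 003, a 22-week-old AL-fed female was left out because its total was only 400410 counts.

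Library totals ranged from 921167 to 9616382 counts with a median of 3256708. The 22-week-old Ercc1Δ/- libraries were shallower than those of their WT counterparts, with 1294980 to 3855444 against 3903589 to 9616382 counts on AL and 921167 to 2572523 against 2660422 to 6124471 on DR, so that depth and genotype cannot be told apart at that age. Values below are normalized counts, that is, counts scaled to a library of 3703241. Ercc1 itself was called lower in the mutants in all 3 genotype comparisons (log2 fold change -1.41 at 6 weeks, -0.97 at 22 weeks on AL and -1.01 at 22 weeks on DR), although 1 WT library of 6 weeks, at 52.2, lay within the mutant range of 31.2 to 56.3. Smooth muscle markers (Myh11, Acta2, Tagln and 7 others) summed to 62800 to 161000 normalized counts in every library and endothelial markers (Pecam1, Cdh5, Vwf and 9 others) to 2040 to 6730, while lymphocyte markers summed to at most 43.2.

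NO is made from arginine by NO synthases, of which the product of Nos3 is the endothelial form. It diffuses into the neighbouring smooth muscle cells and binds soluble guanylate cyclase, a heterodimer of the alpha subunit encoded by Gucy1a1 and the beta subunit encoded by Gucy1b1, which holds the haem group and is needed for a working enzyme. The cyclase makes cGMP, which activates the kinase encoded by Prkg1 and so relaxes the vessel. Phosphodiesterases end the signal: the Pde5a product cleaves cGMP, the Pde1a, Pde1b and Pde1c products are switched on by calcium and calmodulin and cleave cGMP or cAMP, and the Pde3a product cleaves cAMP and is inhibited by cGMP.

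The results turned mostly on Gucy1b1 and Pde1a, and Gucy1a1 is set beside its partner subunit, so the 250 bases before the annotated start of each are shown in GRCm39, 5′ to 3′ on the strand of the gene. The windows are chr3:81982023-81982272 (minus strand) for Gucy1b1, chr3:82053217-82053466 (minus strand) for Gucy1a1 and chr2:79959803-79960052 (minus strand) for Pde1a, and capitals mark the motifs found.
Gucy1b1: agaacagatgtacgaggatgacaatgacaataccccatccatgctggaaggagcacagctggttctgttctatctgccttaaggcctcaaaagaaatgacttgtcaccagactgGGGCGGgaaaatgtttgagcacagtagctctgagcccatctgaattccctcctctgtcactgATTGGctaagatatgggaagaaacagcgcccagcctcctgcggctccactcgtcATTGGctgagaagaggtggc
Gucy1a1: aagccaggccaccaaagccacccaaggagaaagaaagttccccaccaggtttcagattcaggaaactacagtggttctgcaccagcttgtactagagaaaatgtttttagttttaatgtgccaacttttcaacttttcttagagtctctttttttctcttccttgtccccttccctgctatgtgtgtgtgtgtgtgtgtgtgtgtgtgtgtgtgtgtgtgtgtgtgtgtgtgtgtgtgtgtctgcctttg
Pde1a: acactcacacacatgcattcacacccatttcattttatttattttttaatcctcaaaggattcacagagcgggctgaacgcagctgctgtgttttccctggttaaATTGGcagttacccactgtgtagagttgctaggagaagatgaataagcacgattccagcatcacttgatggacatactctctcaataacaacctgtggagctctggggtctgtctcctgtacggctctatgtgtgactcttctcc
The motifs searched on both strands were the CArG box, the GC box (GGGCGG), the CCAAT box (CCAAT, which reads ATTGG on the other strand) and TATAAA. The Gucy1b1 window held a GC box 136 bases before the start and 2 CCAAT boxes, 74 and 20 bases before it, all of them shown in capitals. The Gucy1a1 window held none of the motifs, and the Pde1a window held a CCAAT box 145 bases before the start. Over 12342 of the tested genes, 39.7% of such windows held a GC box, 34.8% a CCAAT box, 8.51% TATAAA and 1.25% a CArG box, so these matches describe the windows and show no use of them. The cyclase genes are neighbours on chromosome 3, at 81939312 to 81982022 (Gucy1b1) and 81999733 to 82053216 (Gucy1a1), both on the minus strand, with 17710 bases and no annotated gene between them. Pde1a lies on chromosome 2 at 79664364 to 79959802 and Pde1b on chromosome 15 at 103411286 to 103439706.

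Per kilobase of exon, Gucy1b1 was the most abundant of the 10, at a mean of 203 normalized counts over the 28 samples (range 135 to 257). Its partner Gucy1a1 followed at 70.6 (55.9 to 91.9), Pde3a at 69.5 (52.6 to 89.4), Pde5a at 57.8 (36.6 to 75.4) and Nos3 at 43.2 (16.9 to 76.6). These ranges overlapped from Gucy1a1 down to Nos3, whereas the Gucy1b1 range stood clear of all of them. Pde1a (17.7) and Prkg1 (12.3) were lower, and Pde1b (4.91) and Pde1c (1.66) lower still. Raw counts of the last 2 genes were few, at 1 to 67 per library for Pde1b and 5 to 110 for Pde1c. Reads were counted over whole gene bodies, so a gene as long as Prkg1 (1200.6 kb) may include unspliced RNA. Per kilobase of the whole gene, Gucy1b1 (20.1) and Gucy1a1 (13.8) still led, but Nos3 (11) came before Pde5a (4.74) and Pde3a (3.45), and Pde1b (1.2) before Pde1a (0.45) and Prkg1 (0.114), so the order below the cyclase subunits depends on the length used.

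**Figure D1:**
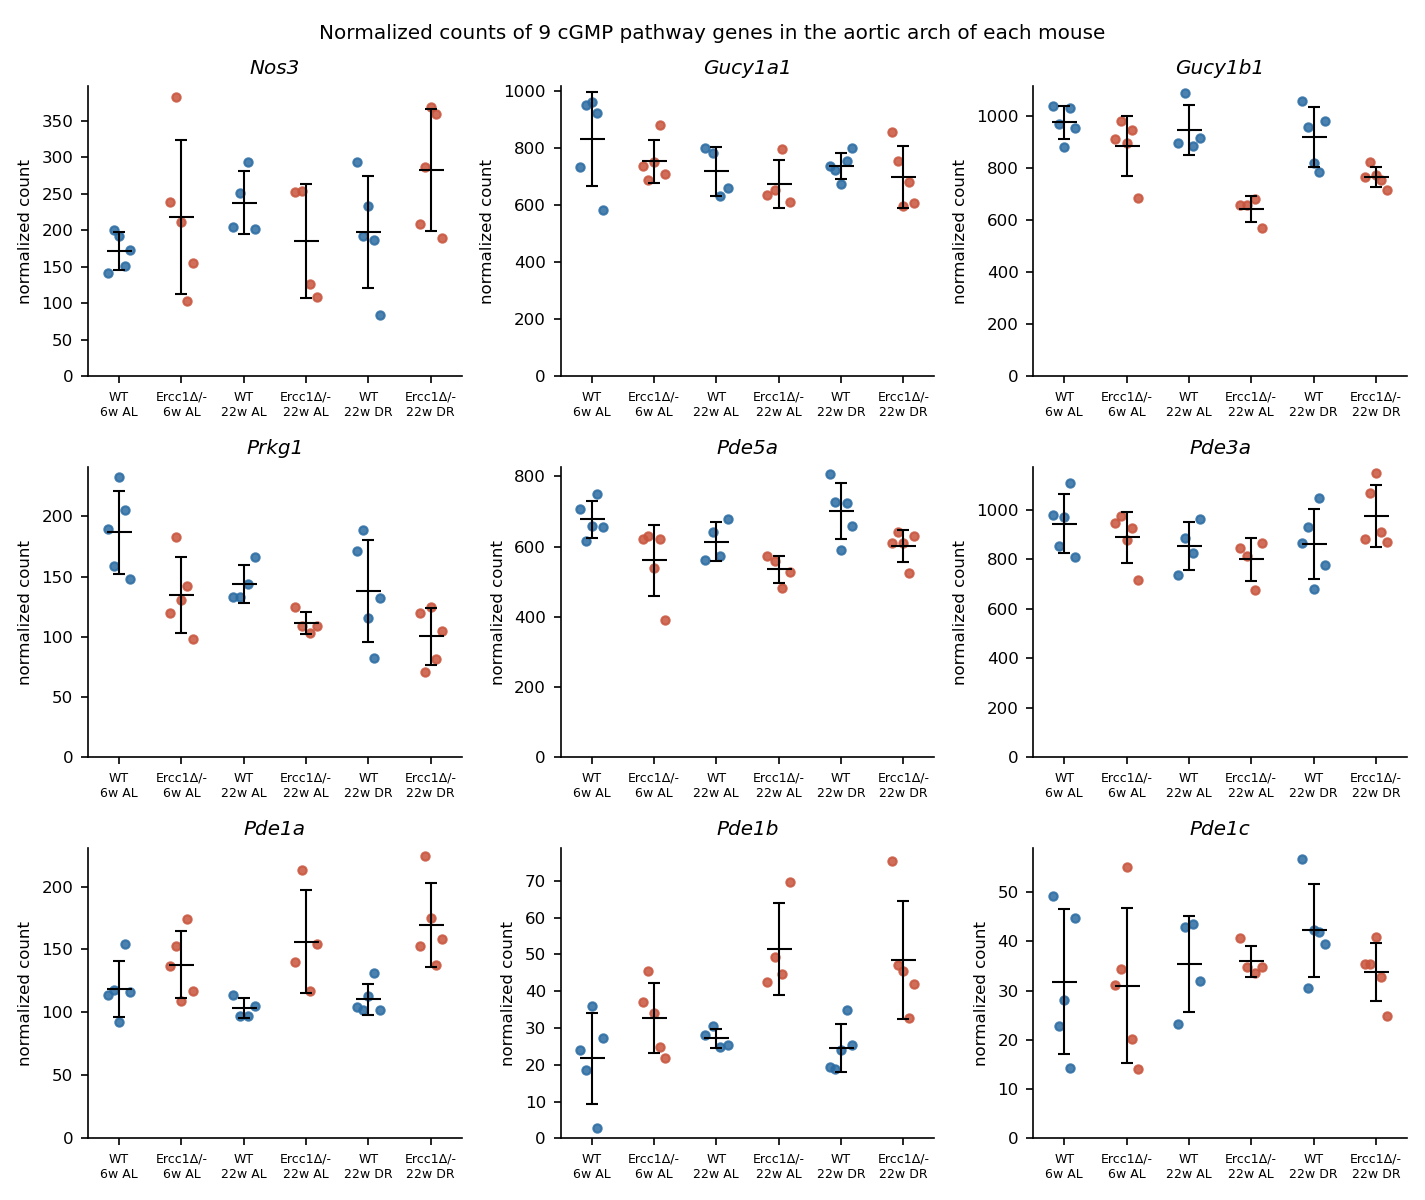
Normalized counts (y axes, starting at 0, a scale of its own per gene) of the 9 tested genes in each of the 28 mice, by group on the x axis, with WT in blue and Ercc1Δ/- in red; each point is 1 mouse and black bars give mean ± SD. Gucy1b1 of the 4 AL-fed 22-week-old mutants sits between 570 and 681, below all 4 of their WT controls at 886 to 1090, and Pde1a and Pde1b of those mutants sit above theirs.

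Calls among these genes came from the genotype comparisons at 22 weeks and from age in the mutants. A gene was called when its edgeR quasi-likelihood adjusted p was at most 0.05 and its change at least 1.2-fold. At 22 weeks on AL, 2 of the 9 tested genes were called, Gucy1b1 lower and Pde1a higher, against a background of 12% of all tested genes. On DR at that age, 3 of 9 were called, Gucy1b1 lower and Pde1a and Pde1b higher, against 13% of all genes. At 6 weeks no member was called (background 1.7%). There 3 of the 9 had an unadjusted edgeR p under 0.05, as had 1584 of the 12353 tested genes. At 22 weeks 4 of the 9 on AL and 5 of the 9 on DR had one, beside 3221 and 3229 of all tested genes. The median log2 fold change of the 9 was -0.12 at 6 weeks, -0.11 at 22 weeks on AL and -0.08 at 22 weeks on DR, with the median of all tested genes at 0.02, 0.03 and 0.004. From 6 to 22 weeks, 1 of 9 was called in Ercc1Δ/- mice, Gucy1b1, lower (background 4.69%), and none in WT mice (0.235%). In WT mice 1 of 9 had an unadjusted edgeR p under 0.05, as had 1068 of all tested genes. DR against AL called none of the 9 in WT mice (1.28%) and none in Ercc1Δ/- mice (1.64%). An unadjusted edgeR p under 0.05 was found for 0 and 2 of the 9, beside 1581 and 1854 of all tested genes. Comparisons that use the same group, such as genotype at 22 weeks on AL and age in Ercc1Δ/- mice, share those samples. A difference of the genotype effect between ages was called for none of the 9 (background 0.842%), nor was a difference between diets (0.0971%), nor sex over all 28 samples (0.186%). Here 1, 1 and 0 members had an unadjusted edgeR p under 0.05, beside 1409, 1077 and 966 of all tested genes.

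**Figure D2:**
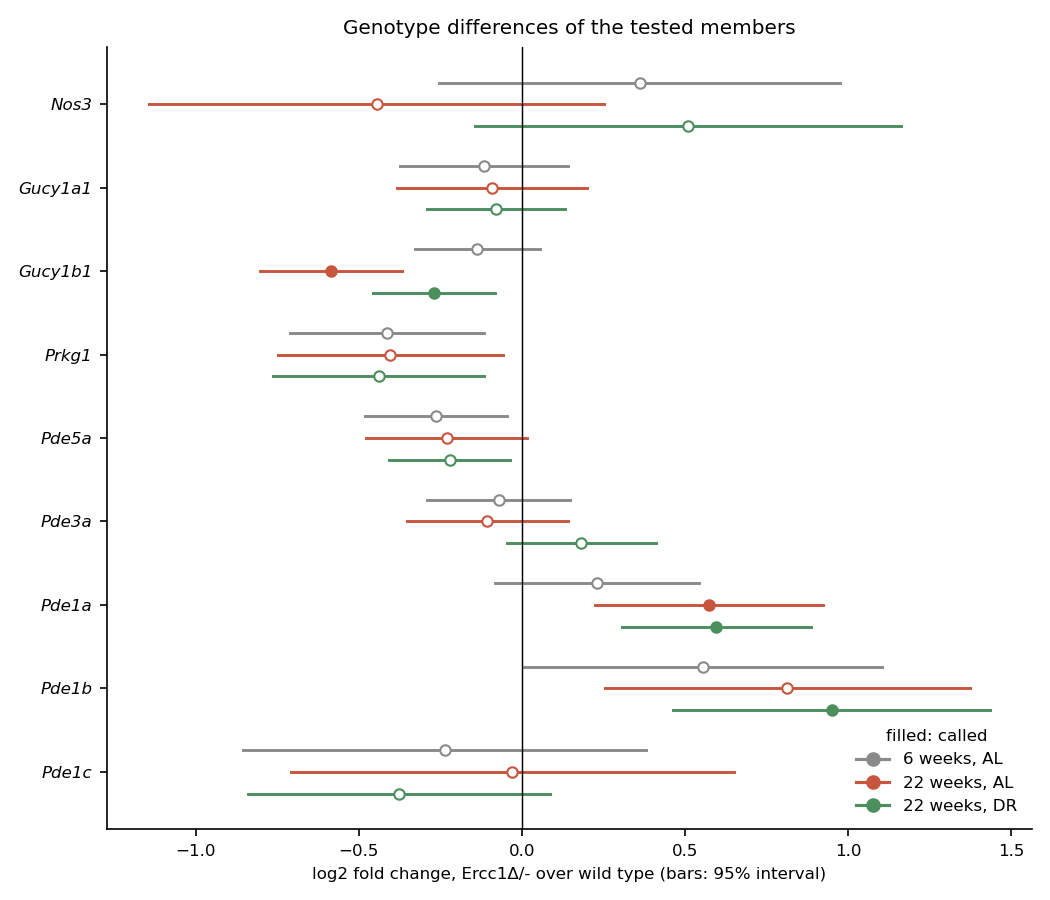
Log2 fold change of Ercc1Δ/- over WT (x axis) for each of the 9 tested genes in the 3 genotype comparisons, with 95% intervals from edgeR; filled symbols are called genes. Gucy1b1 is at -0.59 and Pde1a at 0.57 at 22 weeks on AL, while Gucy1a1 and Pde3a stay near 0 with intervals that span it.

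Gucy1b1 fell in 22-week-old AL-fed Ercc1Δ/- mice without a called change of Gucy1a1. Its normalized counts were 897, 1090, 886 and 915 in the 4 WT mice and 658, 660, 681 and 570 in the 4 mutants. Every mutant was below every WT mouse. The groups of this comparison did not overlap in 4 of the 9 members (Gucy1b1, Prkg1, Pde1a and Pde1b) and in 18.6% of all tested genes, 9.61% with the mutants lower and 9.01% with the mutants higher. Group means were 947 ± 95.5 (SD, n = 4) and 642 ± 49.3 (SD, n = 4), and the log2 fold change was -0.59 (SE 0.10, 95% interval -0.80 to -0.37, edgeR adjusted p 0.000662), or 0.666-fold. The exact two-sided permutation test of the means gave p = 0.0286, the smallest possible with 4 against 4. The call held when any 1 of the 8 mice was left out, with log2 fold changes of -0.64 to -0.51. In bulk tissue, fewer cells that express a gene and less of its RNA per cell cannot be told apart.

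Smooth muscle markers moved with it. Their sum was 120000 to 143000 in these WT mice and 62800 to 97200 in the mutants, with 8 of the 10 markers called lower. Per 1000 normalized counts of summed smooth muscle markers, Gucy1b1 was 7.16 ± 1.13 in WT (SD, n = 4, 6.18 to 8.55) and 8.20 ± 2.08 in the mutants (SD, n = 4, 5.96 to 10.5), so on that scale the groups overlapped. With the mean smooth muscle marker level of each sample as a covariate in the fit, the log2 fold change of Gucy1b1 was -0.32 (edgeR adjusted p 0.60), in a fit that called 32 genes instead of 1487. Macrophage markers (Cd68, Csf1r, C1qa and 5 others) moved the other way, from 767 to 1090 in WT to 1450 to 2780 in the mutants, and 6 of 8 were called higher.

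On DR Gucy1b1 was again called lower in the mutants, but the groups overlapped and the call was fragile. The 5 WT mice had 1060, 958, 821, 785 and 980 normalized counts and the 5 mutants 767, 822, 772, 753 and 716. Only the highest mutant lay within the WT range. The log2 fold change was -0.27 (SE 0.09, 95% interval -0.46 to -0.08, edgeR adjusted p 0.0498), which passed the limits narrowly and no longer did so with DESeq2 (adjusted p 0.051), with other size factors (0.0603), without the sex term (0.0528) or when any 1 of 7 of the 10 mice was left out (up to 0.182). With smooth muscle or endothelial markers as a covariate it was -0.24 or -0.10 (edgeR adjusted p 0.837 and 0.87). Those fits called far fewer genes overall than the 1605 called without a covariate, and the smooth muscle markers themselves separated the genotypes. A call lost in such a fit at 22 weeks, here or below, cannot tell a gene's change from that of the markers. Smooth muscle markers summed to 124000 to 161000 in these WT mice and 88000 to 95400 in the mutants, with 9 of 10 called lower, and Gucy1b1 per 1000 of that sum was 6.86 ± 1.04 and 8.39 ± 0.599 (SD, n = 5 each). Between diets within Ercc1Δ/- mice, the 5 DR values all lay above the 4 AL values, as in 2% of all genes (exact permutation p = 0.00794, the smallest possible). The log2 fold change of DR over AL was 0.26 (SE 0.10, edgeR adjusted p 0.198) in mutants and -0.04 (SE 0.09, adjusted p 0.909) in WT mice. The test of the difference between these diet effects, which is also the difference between the genotype effects on DR and on AL, gave 0.30 (SE 0.14, edgeR adjusted p 0.544).

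At 6 weeks Gucy1b1 did not separate the genotypes. WT mice had 1040, 971, 883, 1030 and 955 normalized counts and mutants 913, 981, 896, 948 and 685, so 4 of the 5 mutants lay within the WT range (log2 fold change -0.14, SE 0.09, edgeR adjusted p 0.597). From 6 to 22 weeks it fell in the AL-fed mutants by 0.48 on the log2 scale (SE 0.10, 95% interval -0.69 to -0.27, edgeR adjusted p 0.0051). All 4 older mutants were below all 5 younger ones, as in 3.38% of all genes (exact permutation p = 0.0159). In WT mice the same comparison gave -0.03 (SE 0.10, edgeR adjusted p 0.976). The difference between the age effects was -0.45 (SE 0.14, 95% interval -0.74 to -0.16) with an unadjusted p of 0.00381 and an edgeR adjusted p of 0.157, and it was called only when the 6-week-old mutant with 685 counts, replicate 027, was left out. When all libraries were thinned to the lowest total, or smooth muscle markers were added as a covariate, the change with age in the mutants was -0.36 (edgeR adjusted p 0.13) and -0.35 (adjusted p 0.211) and no longer called. Thinning, here and below, was a single random draw that was not repeated, so how far its values vary between draws is not known.

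Gucy1a1, the other subunit, was not called in any comparison. In 22-week-old AL-fed mice it had 800, 783, 630 and 658 normalized counts in WT mice and 635, 652, 795 and 612 in mutants. The groups overlapped over most of their range, and the log2 fold change was -0.09 (SE 0.14, 95% interval -0.38 to 0.20, edgeR adjusted p 0.726). On DR, WT means of 736 ± 45.9 stood beside mutant means of 699 ± 108 (SD, n = 5 each; log2 fold change -0.08, SE 0.10, edgeR adjusted p 0.682). Its widest spread was among 6-week-old WT mice, at 584 to 960.

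The ratio of Gucy1a1 to Gucy1b1 normalized counts, formed after the values of both genes had been seen, put these differences into 1 number per mouse. In AL-fed mice of 22 weeks it was 0.760 ± 0.088 in WT mice (SD, n = 4, 0.711 to 0.892) and 1.05 ± 0.0923 in mutants (SD, n = 4, 0.964 to 1.17). The 4 mutants lay above the 4 WT mice (exact permutation p = 0.0286, the smallest possible). This largely restates the separation of Gucy1b1 in the same mice and adds no support to it. On DR the ratio was 0.808 ± 0.100 and 0.911 ± 0.127 (SD, n = 5 each, exact permutation p = 0.206), and the ranges of 0.69 to 0.96 and 0.773 to 1.11 overlapped. At 6 weeks it was 0.856 ± 0.195 and 0.861 ± 0.126 (SD, n = 5 each).

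**Figure D3:**
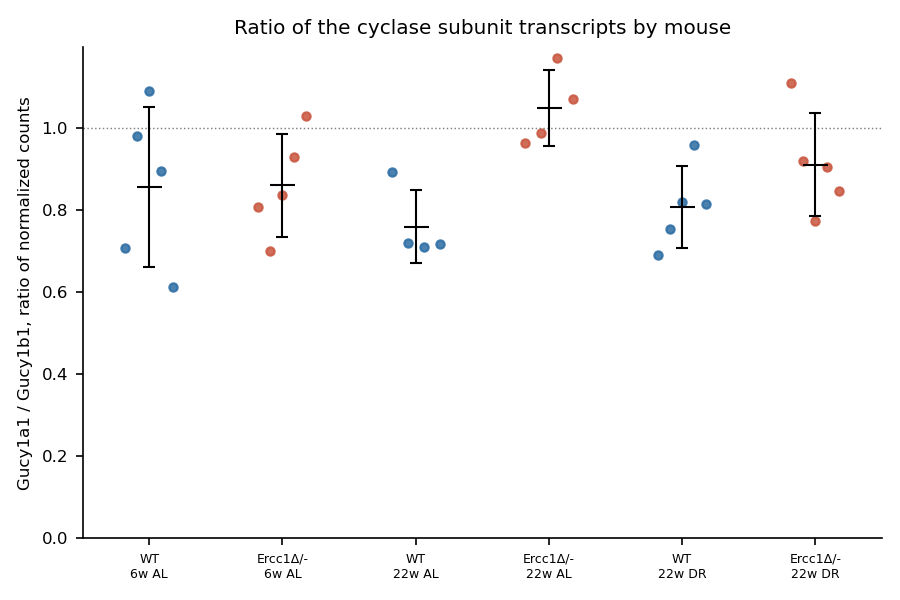
Ratio of Gucy1a1 to Gucy1b1 normalized counts (y axis) in each mouse, by group on the x axis, WT in blue and Ercc1Δ/- in red, with mean ± SD as black bars. The 4 AL-fed mutants of 22 weeks lie between 0.964 and 1.17, above their 4 WT controls at 0.711 to 0.892, whereas the genotypes overlap at 6 weeks and on DR.

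Nos3, the source of endothelial NO, was not called in any comparison, and its values spread widely within groups. At 22 weeks on AL the WT mice had 205, 251, 294 and 202 normalized counts and the mutants 252, 254, 126 and 109. The mutants split into a pair within the WT range and a pair far below it (log2 fold change -0.45, SE 0.33, 95% interval -1.14 to 0.25, edgeR adjusted p 0.426). The higher pair were the 2 females, with library totals of 3855444 and 3351172, and the lower pair the 2 males, with 1294980 and 1433979, so sex and depth cannot be told apart there. On DR the WT mice had 294, 192, 233, 187 and 84.5 and the mutants 209, 287, 369, 360 and 189, of which 2 exceeded every WT mouse (log2 fold change 0.51, SE 0.30, 95% interval -0.14 to 1.16, edgeR adjusted p 0.322). The diet comparison in mutants gave 0.64 (SE 0.34, 95% interval -0.09 to 1.37, edgeR adjusted p 0.409) and in WT mice -0.32 (SE 0.30, adjusted p 0.726). The difference between those diet effects was 0.96 (SE 0.46, 95% interval -0.03 to 1.95, edgeR adjusted p 0.591). In WT mice on AL, all 4 of 22 weeks were above all 5 of 6 weeks, which had 142, 201, 193, 151 and 173, as in 1.75% of all genes, with a log2 fold change of 0.53 (SE 0.30, edgeR adjusted p 0.677).

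Endothelial markers varied alongside Nos3. Their sum ranged from 2950 to 4760 in 22-week-old AL-fed mutants, from 3550 to 5040 in their WT controls, from 2040 to 4000 in WT mice on DR and from 3890 to 6160 in mutants on DR, where 6 of the 12 markers were called higher than in WT. Per 1000 of that sum, Nos3 was 56.8 ± 1.17 in WT and 47.0 ± 9.34 in mutants on AL (SD, n = 4 each), and 58.9 ± 15.0 and 56.7 ± 8.60 on DR (SD, n = 5 each). The spread of Nos3 among the AL-fed WT mice was thus narrow on this scale, at 55.7 to 58.3, and the AL-fed mutants ranged from 36 to 56. With the endothelial marker level as a covariate, the log2 fold change on DR was -0.30 (edgeR adjusted p 0.855), opposite in sign to the value without it. On AL at 22 weeks it was -0.58 with that covariate (edgeR adjusted p 0.153) and -0.45 without it (adjusted p 0.426), uncalled in both fits. An antisense RNA, Gm15587, covers 17423 bases of Nos3 and had at most 2 counts in any library.

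Prkg1, the cGMP-dependent kinase, had lower group means in the mutants in all 3 genotype comparisons, none of them called. Per 1000 of summed smooth muscle markers the means of WT and mutants were 1.43 and 1.32 at 6 weeks, 1.09 and 1.44 at 22 weeks on AL and 1.02 and 1.09 on DR, with overlapping ranges. With smooth muscle markers as a covariate it stayed uncalled at 22 weeks, at -0.34 on AL and -0.83 on DR (edgeR adjusted p 0.793 and 0.53). At 6 weeks WT mice had 190, 159, 233, 205 and 148 normalized counts and mutants 120, 183, 131, 142 and 98.5, so 4 of the 5 mutants were below every WT mouse (log2 fold change -0.41, SE 0.14, 95% interval -0.71 to -0.12, edgeR adjusted p 0.179). At 22 weeks on AL, WT mice had 133, 133, 144 and 166 and mutants 125, 109, 103 and 109, with no overlap, as in 9.61% of all genes (log2 fold change -0.40, SE 0.17, 95% interval -0.75 to -0.06, edgeR adjusted p 0.120). On DR, WT mice had 171, 189, 116, 82.7 and 132 and mutants 120, 70.8, 125, 81.8 and 105. Those groups overlapped, with 2 of the 5 WT mice below the highest mutant (log2 fold change -0.44, SE 0.16, edgeR adjusted p 0.0651). Single libraries decided 2 of these results: Prkg1 was called at 6 weeks without the mutant with 183 counts, replicate 008 (-0.55, edgeR adjusted p 0.0481), and on DR without the WT mouse with 82.7, replicate 021 (adjusted p 0.0197). On DR it was also called without the filter on low counts (-0.49, edgeR adjusted p 0.0244) and in the single random thinning of all libraries to the lowest total (-0.81, adjusted p 0.00668).

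Pde1a, a calmodulin-dependent phosphodiesterase of smooth muscle, rose in 22-week-old mutants on both diets. On AL, WT mice had 114, 97.1, 97.4 and 105 normalized counts and mutants 140, 213, 117 and 154. Every mutant was above every WT mouse, as in 9.01% of all genes, though the lowest mutant and the highest WT mouse were only 3 counts apart. The log2 fold change was 0.57 (SE 0.17, 95% interval 0.22 to 0.92, edgeR adjusted p 0.0277), or 1.49-fold. That call was lost when any 1 of 4 of the 8 mice was left out (WT replicates 018 and 020, mutant replicates 005 and 026), with log2 fold changes of 0.39 to 0.67 over all 8, when all libraries were thinned to the lowest total (0.61, edgeR adjusted p 0.182) and with smooth muscle markers as a covariate (0.74, adjusted p 0.434).

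On DR, Pde1a had 104, 102, 113, 131 and 102 normalized counts in WT mice and 153, 224, 175, 138 and 158 in mutants. The groups again did not overlap, as in 3.08% of all genes (exact permutation p = 0.00794, the smallest possible). The log2 fold change was 0.60 (SE 0.14, 95% interval 0.31 to 0.89, edgeR adjusted p 0.00526), and it was called whichever of the 10 mice was left out. The estimate stayed close but was not called after thinning (0.67, edgeR adjusted p 0.087) or with smooth muscle (0.65, adjusted p 0.64) or endothelial markers (0.55, adjusted p 0.395) as a covariate. The AL and DR comparisons share no mouse. Per 1000 of summed smooth muscle markers, Pde1a was 0.779 ± 0.0807 in WT mice (0.679 to 0.872) and 2.02 ± 0.795 in mutants (1.2 to 3.03) on AL (SD, n = 4 each), and 0.824 ± 0.139 and 1.86 ± 0.398 on DR (SD, n = 5 each). The genotypes did not overlap on this scale on either diet, which was not particular to Pde1a. The uncalled Gucy1a1 (4.39 to 6.15 in WT and 6.4 to 10.1 in mutants on AL) and Pde1b did not overlap on either diet, nor did Pde1c on AL and Pde3a on DR, as the marker sum that divides them was itself lower in the mutants. How large a share of all tested genes separates on this scale was not computed. At 6 weeks WT mice had 92.4 to 154 normalized counts and mutants 109 to 174 (log2 fold change 0.23, SE 0.15, edgeR adjusted p 0.587). DR against AL within mutants and age within mutants gave no call for Pde1a (age: 0.16, edgeR adjusted p 0.660).

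Pde1b, its paralog, had similar directions at far lower counts. On AL at 22 weeks, WT mice had 28.1, 30.4, 24.8 and 25.4 normalized counts and mutants 42.4, 49.4, 44.6 and 69.7, with no overlap. The log2 fold change of 0.81 (SE 0.27, 95% interval 0.25 to 1.37) missed the limit with an edgeR adjusted p of 0.0518, and passed it with DESeq2 (0.0262), without the sex term (0.0273) and with all 28 samples in 1 fit (0.0341). It stayed uncalled under the other alternatives, at 0.45 after thinning (edgeR adjusted p 0.577) and 1.55 with smooth muscle markers as a covariate (adjusted p 0.291). On DR, WT mice had 19.4, 18.9, 24.1, 34.8 and 25.5 and mutants 75.3, 47.2, 45.6, 32.7 and 41.9. There 4 of the 5 mutants were above every WT mouse, and the log2 fold change of 0.95 (SE 0.24, 95% interval 0.46 to 1.43, edgeR adjusted p 0.00767) was called, also without any 1 of the 10 mice. After thinning all libraries to the lowest total it was 0.19 (edgeR adjusted p 0.817), and with smooth muscle or endothelial markers as a covariate it was 1.36 or 1.24 and not called (adjusted p 0.486 and 0.179). At 6 weeks the value was 0.56 (SE 0.26, edgeR adjusted p 0.381), with 1 WT mouse at 2.85. The gene Ppp1r1a overlaps 2765 bases of Pde1b on the other strand, and whether counting used the strand is not given in the sources used here.

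**Figure D4:**
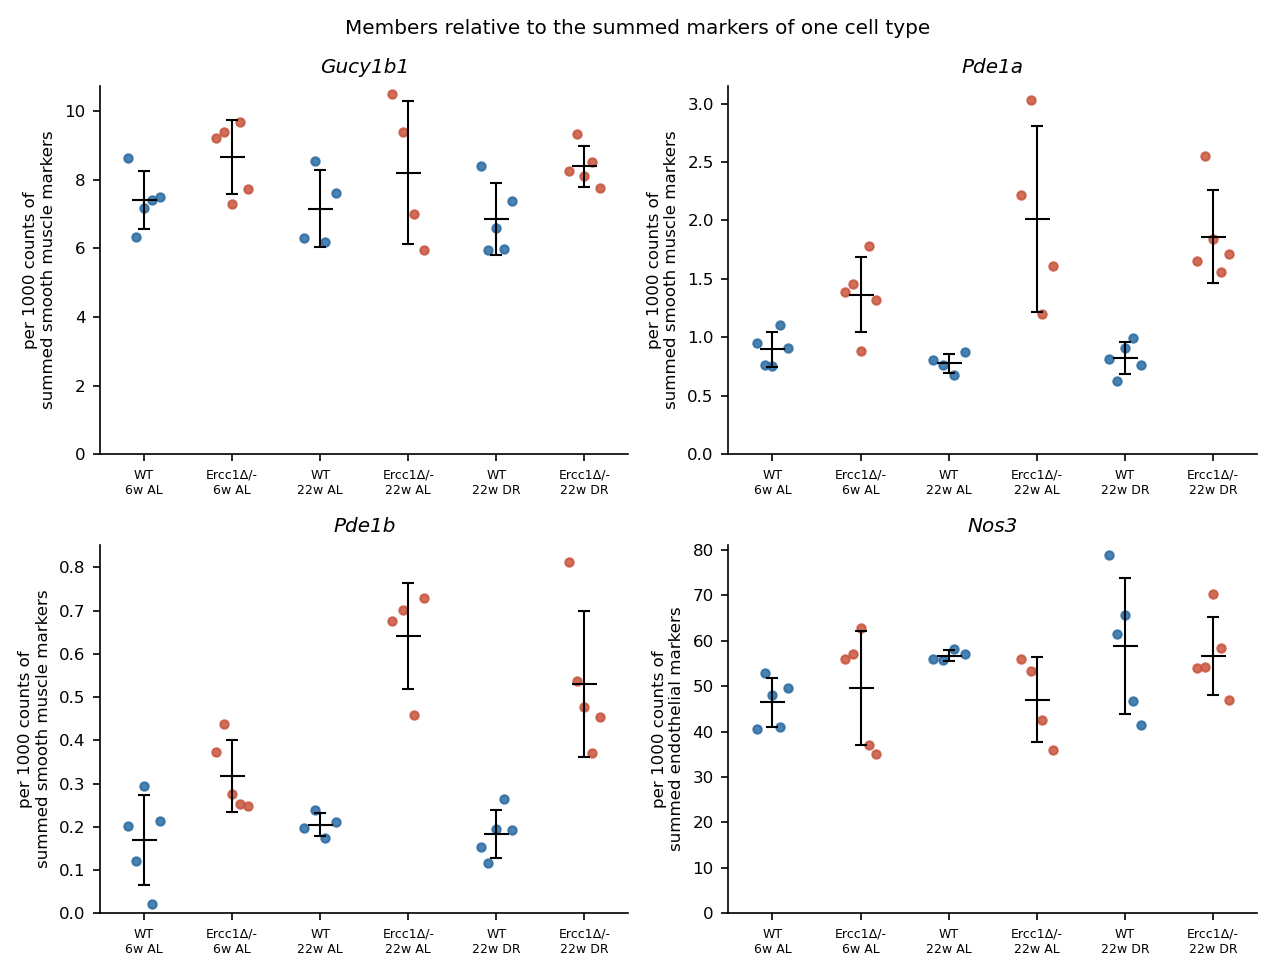
Levels of 4 genes relative to marker sums (y axes: normalized counts per 1000 normalized counts of summed smooth muscle markers for Gucy1b1, Pde1a and Pde1b, and of summed endothelial markers for Nos3) in each mouse by group, with mean ± SD as black bars. On this scale Gucy1b1 overlaps between genotypes at 22 weeks on AL (6.18 to 8.55 in WT, 5.96 to 10.5 in mutants), while Pde1a does not (0.679 to 0.872 and 1.2 to 3.03); the marker sum itself is lower in the mutants, and the uncalled Gucy1a1, not drawn, does not overlap either.

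The remaining phosphodiesterases showed no call. Pde5a, which cleaves cGMP, had 562 to 678 normalized counts in WT and 483 to 572 in mutant mice at 22 weeks on AL, where the groups overlapped slightly (log2 fold change -0.23, SE 0.12, 95% interval -0.48 to 0.02, edgeR adjusted p 0.227). On DR it had 591 to 806 and 524 to 641 (-0.22, SE 0.09, edgeR adjusted p 0.112), and at 6 weeks 615 to 750 and 391 to 630 (-0.26, SE 0.11, adjusted p 0.268). Pde3a, whose product cGMP inhibits, had 739 to 965 and 675 to 868 at 22 weeks on AL (-0.11, SE 0.12, 95% interval -0.35 to 0.14, edgeR adjusted p 0.618). Between diets in the mutants, Pde3a had 847, 814, 675 and 868 normalized counts on AL and 882, 1070, 1150, 912 and 872 on DR. All DR values were above all AL values, as in 2% of all genes (exact permutation p = 0.0317), and the log2 fold change was 0.29 (SE 0.12, 95% interval 0.05 to 0.54, edgeR adjusted p 0.23). Pde1c, the third calmodulin-dependent form, had 23.3 to 43.6 and 33.5 to 40.6 at 22 weeks on AL (-0.03, SE 0.33, 95% interval -0.71 to 0.65, edgeR adjusted p 0.969), an interval too wide to exclude a change of the size seen for Pde1a.

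The wider pathway was read from 4 lists of 72 further genes, also chosen with earlier results of these data known. Of these genes, 48 were tested. Among AL-fed mice of 22 weeks, 4 were called higher (background 5.88% of all genes) and 13 lower (6.16%). On DR 5 were higher (5.97%) and 12 lower (7.03%). The lower calls lay mostly among the targets of cGMP, of which 9 of 18 tested fell on AL with a list median of -0.48, and 10 of 18 on DR with a list median of -0.35, against medians of all genes of 0.03 and 0.004. Many of these targets are contractile genes of smooth muscle, and they moved beside the smooth muscle markers given above.

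On AL the cGMP targets that fell were Itpr1, the calcium release channel (log2 fold change -0.81, edgeR adjusted p 3.03e-05), Irag1, its partner that the kinase phosphorylates (-0.67, 0.00110), and Vasp, an actin regulator phosphorylated by the same kinase (-0.75, 0.000104). The myosin phosphatase subunits Ppp1r12a (-0.73, edgeR adjusted p 0.000117) and Ppp1r12b (-0.88, 0.000398) fell, and so did the myosin light chain kinase gene Mylk (-0.68, 0.00199). The calcium pumps Atp2b4 (-0.73, edgeR adjusted p 0.000235) and Atp2a2 (-0.48, 0.00435) and the potassium channel subunit Kcnmb1 (-0.60, 0.00244) completed the 9. Abcc4, an exporter of cyclic nucleotides, rose (0.73, edgeR adjusted p 0.0302). On DR the smallest p-values were those of Vasp (-0.81, edgeR adjusted p 8.15e-07), the small heat shock protein Hspb6 (-0.81, 1.23e-05) and Kcnmb1 (-0.56, 4.73e-05).

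**Figure D5:**
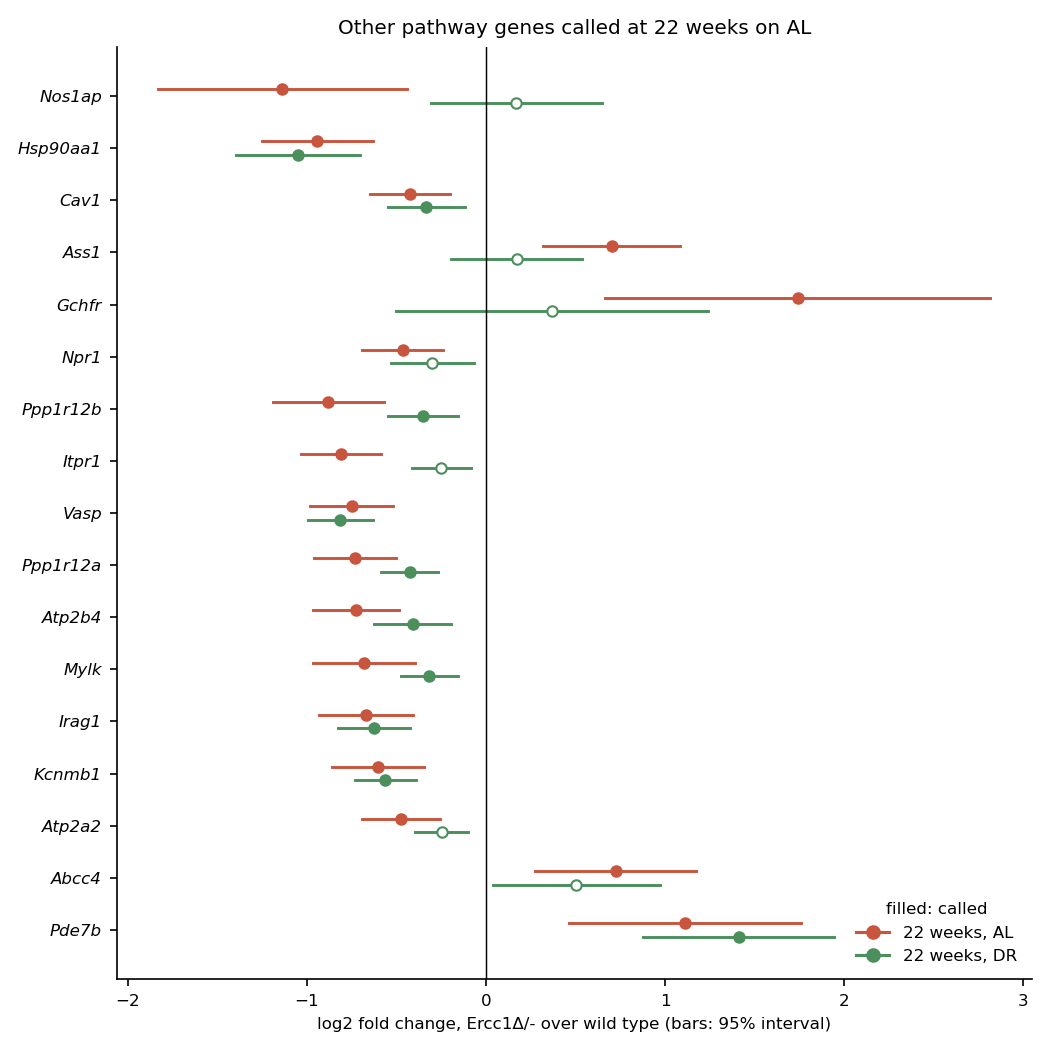
Log2 fold change of Ercc1Δ/- over WT (x axis) at 22 weeks on AL (red) and on DR (green) for the 17 pathway genes called on AL, with 95% intervals; filled symbols are called genes. The 9 cGMP targets that fell on AL have negative values on DR too, while Nos1ap is at -1.14 on AL and has an interval on DR that spans 0.

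In the list of NO supply, 17 of 23 genes were tested and the list median on AL was 0.01. Gchfr, the regulator of the enzyme that starts tetrahydrobiopterin synthesis, rose (log2 fold change 1.74, edgeR adjusted p 0.0297), as did Ass1, which recycles citrulline towards arginine (0.70, 0.0135). Hsp90aa1, a chaperone that binds NO synthase (-0.94, edgeR adjusted p 0.000220), the adaptor Nos1ap (-1.14, 0.0278) and Cav1, the caveolar protein that binds the endothelial synthase (-0.42, 0.0116), fell. Of the 3 tested cyclase and natriuretic peptide receptor genes, Npr1, the membrane cyclase that binds atrial natriuretic peptide, fell (-0.47, edgeR adjusted p 0.00630). Of 10 other phosphodiesterases tested, the cAMP-cleaving Pde7b rose on AL (1.11, edgeR adjusted p 0.0215), and Pde7b (1.41, 0.000538), the cGMP-cleaving Pde9a (1.13, 0.0129) and the cAMP-cleaving Pde4d (0.58, 0.0337) rose on DR.

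Fewer of these pathway genes were called elsewhere. At 6 weeks Mylk (-0.50, edgeR adjusted p 0.0356) and Ppp1r12b (-0.54, 0.0389) were lower in the mutants. With age, 2 rose (background 2.11%) and 4 fell (2.57%) in mutants, led by Hspb6 (-0.63, edgeR adjusted p 0.00364), Ppp1r12a (-0.51, 0.00468) and Cyb5r3, a reductase that acts on haem proteins (0.40, 0.0124), while none was called in WT mice. DR against AL called 2 in WT mice (background 1.28%), Cyb5r3 (0.36, edgeR adjusted p 0.0338) and Pde4d (0.75, 0.0407), both higher on DR. In mutants 4 rose on DR (background 1.64%), led by Pde4d (0.98, edgeR adjusted p 0.0177), Ppp1r12a (0.36, 0.0278) and Nos1ap (1.23, 0.0389).

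Over the 28 samples, the genes whose log2 CPM (counts scaled to library size) most resembled each member differed between members. The samples share libraries, depth and group structure across genes, so these Pearson correlations only describe the set. Nos3 was most like Pkn3 (r = 0.917), the endothelial Pecam1 (0.876) and Bmx (0.857), and after centring within groups like Vwf (0.920). Gucy1b1 was most like Slmap (0.925) and Ppp1r12a (0.871), and Gucy1a1 like Ankmy2 (0.741) and Abracl (0.662). Prkg1 was most like B230219D22Rik (0.845), Nedd4 (0.843) and Twsg1 (0.839), and Pde5a like Dip2c (0.843), Slc4a7 (0.794) and Bnip2 (0.793). Pde1a was most like Litaf (0.785), Apbb1ip (0.781) and Rrm1 (0.774), and Pde1b like Wdr19 (0.812), 9930111J21Rik2 (0.810) and Pgf (0.806). Among the members themselves, Gucy1b1 and Pde5a had r = 0.66, Gucy1b1 and Prkg1 0.63, and Gucy1b1 and Pde1b -0.58. After centring within groups these values were 0.66, 0.43 and -0.14, and the highest of any member pair was that of Pde5a and Pde3a (0.73).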

How the data were processed

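Bulk mRNA libraries of 29 aortic arches, 1 per mouse, were sequenced by the authors, who trimmed reads with fastp, aligned them with STAR 2.7.10a to GRCm39 (Ensembl annotation), removed duplicate reads by molecular identifier with UMI-tools 1.1.2 and counted reads per gene with HTSeq 2.0.2. The deposited values are whole-number counts, and the 5 lines for unassigned reads, 12.6% to 18.7% of reads in the 28 samples used, were left out. Sample 003 was left out as in the study. The remaining 28 samples were grouped by the labels. Genes with over 10 counts in at least 11 samples were tested with edgeR 4.0.16 in R 4.3.3 (TMM factors 0.936 to 1.07, robust quasi-likelihood F test, group and sex as terms, Benjamini-Hochberg adjustment over 12353 genes). AL-fed samples (18) gave the genotype comparisons on AL and the age comparisons, and samples of 22 weeks (18) gave those on DR and the diet comparisons. Replicates are separate mice. On simulated counts of the 22-week AL comparison over 12353 genes, 100 genes were changed by each size. There 31% of 1.5-fold and 68% of 2-fold changes were called. The data held more changed genes (1487 called), which makes the adjusted limit less strict, so these shares are not the power of the real comparison. Motifs were searched in the genome sequence with the GENCODE M39 annotation, which is later than the one used for counting. The members and the pathway and marker lists were chosen with earlier results of these data known. Named pathway genes were all those called at 22 weeks on AL and the 3 called with the smallest p in each other comparison; the 3 phosphodiesterases named on DR were added after their values were seen. Alternatives were DESeq2 1.42.0, other size factors, no filter, sample 003 added, no sex term, 1 fit of all 28 samples, thinning to the lowest total, marker levels as covariates and leaving out each mouse. Thinning was a single random draw. Some genes whose pattern was like that of a member are not reported here.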

Additional observations from a re-analysis of the deposited data

Results flagged for a closer look

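In 3 of the 54 sets of 4 or 5 samples (9 genes in 6 groups), 1 sample stood apart from the rest of its group by Dixon's measure, the gap to the nearest sample divided by the range; chance alone marks about 1 in 20 such groups. Gucy1b1 in the 6-week-old Ercc1Δ/- mouse 027 was at 685 normalized counts, against 896 to 981 in the other 4 (0.712). Gucy1b1 in the 22-week-old AL-fed WT mouse 018 was at 1090, the next highest being 915 (0.855). Pde5a in the DR-fed Ercc1Δ/- mouse 022 was at 524, against 609 to 641 in the others (0.727).

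In the left-out sample 003, 3 genes lay above every one of the 28 samples used: Prkg1 at 355 normalized counts (36 counts, highest other 233), Pde5a at 976 (99 counts, highest other 806) and Pde1c at 59.2 (6 counts, highest other 56.8).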

How the results depend on the processing

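No paired analysis was possible because each mouse gave 1 sample and no sample number is shared between groups. The number of members called moved by over 1.5 times, or to 0, in 3 comparisons. With all libraries thinned to the lowest total, in a single random draw, it was 1 in place of 2 for genotype at 22 weeks on AL (Gucy1b1 kept), 1 in place of 3 for genotype on DR (Prkg1 in place of the others) and 0 in place of 1 for age in Ercc1Δ/- mice. With smooth muscle markers as a covariate it was 0 in all 3, and with endothelial markers as a covariate it was 0 for genotype on DR. Those fits called fewer genes overall: 32 with the smooth muscle covariate at 22 weeks on AL, and 3 (smooth muscle) or 115 (endothelial) on DR. Leaving out each mouse in turn gave 0 to 1 members called for genotype at 6 weeks (Prkg1, without Ercc1Δ/- replicate 008), 1 to 2 for genotype at 22 weeks on AL, 2 to 4 on DR and 0 to 1 for the interaction of genotype and age. In the other comparisons these counts did not change, and under the alternatives other than leaving out a mouse 81 counts stayed within 1.5 times and the 7 named above did not. Many of the 81 came from comparisons with no member called in the main fit, which could not lose a call. Some of the 81 moved by less. On AL at 22 weeks, Pde1b was added with DESeq2, without the sex term and in 1 fit of all 28 samples. On DR, Gucy1b1 was lost in those settings, with other size factors and with sample 003, and Prkg1 was added without the filter.

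Of the single log2 fold changes, every one that changed sign was uncalled with and without the alternative, and the cause was not tested. With smooth muscle markers as a covariate, Gucy1a1 was at 0.0125 (genotype at 6 weeks), 0.14 (22 weeks, AL), 0.418 (DR), -0.0269 (diet in WT) and -0.0729 (diet in mutants), Pde1c at 0.0466 (22 weeks, AL) and 0.135 (diet in mutants), Nos3 at -0.235 and Pde3a at -0.0733 (DR), and Pde3a at 0.0346 and Prkg1 at 0.00365 (diet in WT). With endothelial markers as a covariate, Nos3 was at -0.296 (DR) and 0.137 (diet in WT), Gucy1a1 at 0.207 (DR) and -0.127 (diet in WT), and Pde1b at 0.000409 (diet in mutants). After thinning, Pde1c was at 0.0959 (6 weeks), 0.486 (age in WT), -0.101 (age in mutants), -0.294 (diet in WT) and 0.0393 (diet in mutants), Pde3a at 0.0321 (6 weeks) and 0.0466 (diet in WT), Gucy1a1 at 0.0467 (DR), Gucy1b1 at 0.0562 (age in WT), and Prkg1 at 0.143 and Pde1b at 0.307 (diet in WT). Without the sex term Pde1c was at 0.0267 (22 weeks, AL) and Pde3a at 0.00472 (diet in WT), and with all 28 samples in 1 fit Pde3a was at 0.00405 (diet in WT). Pde1c for age in WT was at 0.0784 with DESeq2 and 0.0566 with sample 003 added, and Gucy1a1 for diet in WT at -0.0141 with sample 003.

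Leaving out single mice also crossed 0 for Pde1c at 22 weeks on AL (-0.128 to 0.0949). For age in WT it did so for Gucy1b1 (-0.0956 to 0.00558) and Pde1c (-0.135 to 0.246), and for age in mutants for Nos3 (-0.544 to 0.0468) and Pde1a (-0.0219 to 0.256). For diet in WT it did so for Gucy1a1 (-0.0238 to 0.0947), Gucy1b1 (-0.11 to 0.056), Prkg1 (-0.143 to 0.0362), Pde1a (-0.042 to 0.111) and Pde3a (-0.0793 to 0.0745), and for diet in mutants for Gucy1a1 (-0.0212 to 0.158), Pde1a (-0.00157 to 0.273) and Pde1b (-0.286 to 0.12). Depth limits Pde1b (1 to 67 counts a library) and Pde1c (5 to 110) most, and depth differs between the genotypes at 22 weeks.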
